A study of Mus musculus with 2 samples.

Results

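Olig2 peaks that lay at the promoters of protein-coding genes and carried a hit of the E-box motif were drawn from 1 list of Olig2-bound regions of the adult mouse spinal cord. A peak was a member when its annotation was a promoter at the transcription start site (TSS), its nearest gene was protein-coding, and at least 1 of its motif hits was of the E-box motif, for which AGCAGCTG was the commonest word. Peaks with a hit of another motif, with ACTTCCGGTCCG as its commonest word, were left out. Of 4215 peaks, 1572 were annotated to promoters, and 1503 of these had a protein-coding nearest gene. The E-box motif was present in 481 of the 1503, of which 22 also held the excluded motif. This left 459 members at 456 genes, which is 30.5% of the protein-coding promoter peaks and 18.1% of the 2529 peaks of the list with the E-box motif. No measured score entered this choice.

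Chromatin came from whole spinal cord of healthy C57BL/6 mice, males of 6 weeks, and was precipitated with a polyclonal antibody against Olig2. Sheared chromatin of the same tissue was the Input Control. Cords were pooled for each precipitation, and the authors pooled the reads of separate experiments before they called peaks, so that each peak has a single score and no replicate. Whole cord holds neurons, astrocytes, microglia and vascular cells beside the oligodendrocyte (OL) lineage, and a peak in more cells cannot be told apart from stronger occupancy in fewer. All tests compare peaks or genes of this list, and their intervals cover counting error only, not the spread between mice. The files used here give no read count behind a score and do not name its scale, so scores are ranked within the list.

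Olig2 is a basic helix-loop-helix transcription factor that specifies OL precursors and motor neurons during development and stays expressed in the adult OL lineage. Factors of this family bind as dimers to the E-box, CANNTG, and Olig2 is known both as an activator and as a repressor. Promoters of housekeeping genes in mammals often lie in CpG islands, stretches rich in C, G and the CG dinucleotide, where many factors and the transcription machinery gather.

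The motif is named for the E-box, but many members had no E-box in any hit of it. CANNTG was found in a hit of 246 of the 459 (53.6%, exact interval 48.9 to 58.2), and the hits of the other 213 held none. In the whole 51 bp of the peak, CANNTG was found in 268 members (58.4%). Among the 213 without CANNTG in a hit it was found in 22 (10.3%). Among 1022 promoter peaks without the E-box motif it was found in 105 (10.3%). In 51 bp windows placed 74 bp upstream of 1 TSS of each of 21000 protein-coding genes, where the median member lay, CANNTG was found in 17.7% and CAGCTG in 2.58%. Members were chosen by a motif hit in these 51 bp, so the higher share over all members is set by the rule. The comparison with the windows is also not free for the 2 lower shares. The 213 were taken for having no CANNTG in a hit, and the 1022 for having no hit of the motif. Of the 1629 windows that held any 8-base word hit by the motif in the list, 873 held one with CANNTG (53.6%), which is the share found in members. The windows were not matched to members in base composition, and the words were taken from hits of this same list. A preference of members for the E-box was therefore not tested. The 246 and the 213 are therefore described side by side in what follows. The sites below are from the 5 highest members with an E-box in the hit and from 5 members without one, namely the 2 highest, 1 among the 12 highest, and 2 of genes of the microtubule cytoskeleton. Each is 30 bases of the GRCm38 reference (the same assembly as mm10), 5′ to 3′ on the strand of the nearest gene, with the bases of the motif hits in capitals.
Mrpl34 (chr8:71464595-71464624, plus strand): gcccgctgcgtGCCAGCTGcccgtcttcaa
Mafa (chr15:75748474-75748503, minus strand): caccccttccCACAGCTGTTtcccgcagga
Urod (chr4:116994464-116994493, minus strand): agggcagcccCACAGCTGTCactggatcgg
Lig4 (chr8:9976365-9976394, minus strand): ctgcgcggcaAGCAGCTGGCggaaacgccc
Chn2 (chr6:54272790-54272819, plus strand): tacagacagaaCACAGCTGcctcaagtctg
Amd1 (chr10:40302299-40302328, minus strand): ccaccgccagcCAGCCGGCgttcggcgacg
Dcaf13 (chr15:39112840-39112869, plus strand): cagctgagccaTCCGGCTGccactctgcgg
Sgk1 (chr10:21994539-21994568, plus strand): agcctgctaggCGGCTGGGctggggggtgg
Dctn2 (chr10:127266297-127266326, plus strand): ggggtgtggtaGCCGGCTGtcctcgcgact
Clip1 (chr5:123685004-123685033, minus strand): gcagccctgaGCCGGCTGTTgcagcgtcct
The first 5 share the core CAGCTG, which reads the same on both strands, and the last 5 have CGGCTG or its reverse complement CAGCCG in the hit. The last 5 do not stand for all members without an E-box. Dnajc1, with a higher score than Sgk1, has AAGCTG in its hit and is not shown. Mafa has a second site with CAGCTG that is not shown, and the window of Dcaf13 opens with a CAGCTG that the authors' search did not list as a hit.

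The cores of the 680 hits in members were therefore counted against CAGCTG, with positions counted from 1 at the first C on the strand of the motif. CAGCTG itself made up 304 hits (44.7%). A single change of T5C or A2G, which are the same change read on opposite strands and give CAGCCG and CGGCTG, accounted for 173 hits (25.4%). C1A, which gives AAGCTG and is also no E-box, accounted for 77 hits (11.3%). The E-box CAGATG, given by C4A or G3T alone, was present in 98 hits, and CATATG in 10. The dinucleotide CG was in 191 of the 268 hits without an E-box (71.3%). The most frequent word without an E-box was CAGCCGGC with 33 hits, and the most frequent with one was CAGCTGCT with 54.

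The same motif was then compared between members and the 1427 E-box motif peaks of the list that lay more than 10 kb from a TSS. CAGCTG was less frequent in members, with 44.7% of 680 hits (exact interval 40.9 to 48.5) against 61.3% of 2478 hits (59.4 to 63.3). The odds ratio was 0.510 (95% interval 0.429 to 0.605), with an adjusted p of 3.92e-14 in Fisher's exact test (Benjamini-Hochberg over 3 tests). This test takes hits as independent, but a palindromic site is often hit on both strands and a peak may hold several hits. With peaks as the unit, CAGCTG was in a hit of 179 members (39.0%) and of 847 distal peaks (59.4%). That odds ratio was 0.438 (0.353 to 0.543), an alternative chosen after the data were seen. Counted by peaks, an E-box was in a hit of 53.6% of members and of 81.9% of the distal peaks, an odds ratio of 0.256 (0.204 to 0.322; unadjusted p 2.55e-31 in Fisher's exact test, a comparison chosen after the data were seen). The share in members was that of the windows at all genes with a word of the motif (53.6%), which were not matched in base composition. No such background was computed for distal sequence. T5C or A2G alone made up 4.84% of the distal hits. Hits without CANNTG of any form made up 39.4% of the hits in members and 15.1% in distal peaks. Among hits of peaks with an E-box in a hit alone, CAGCTG was 304 of 429 in members and 1520 of 2183 in distal peaks, with an odds ratio of 1.06 (0.845 to 1.33) and an adjusted p of 0.645. That limit leaves out only peaks with no CAGCTG in a hit, so it raises both shares by itself.

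Members also had fewer hits per peak. More than 1 hit was present in 193 members (42.0%) and in 820 distal peaks (57.5%), an odds ratio of 0.537 (0.434 to 0.665; adjusted p 1.57e-08, Fisher's exact test). Many such pairs are 1 palindromic site read on both strands, so distinct sites were counted as well. By that count 429 members had 1 site and 30 had 2 or more (6.54%), against 232 distal peaks with 2 or more (16.3%), an odds ratio of 0.360 (0.242 to 0.535). The difference in hits was not past the threshold among peaks with a score of at least 20 (0.767, adjusted p 0.255) or among peaks with an E-box in a hit (0.836, adjusted p 0.350). Hits lay within 10 bp of the peak center in 48.8% of members' hits and 45.9% of distal hits, which was not past the threshold (odds ratio 1.12, 0.948 to 1.33; adjusted p 0.193). Of 678 hits at genes of known strand, 338 (49.9%) lay on the strand of the gene (p 0.969, two-sided exact binomial test). A site hit on both strands gives 1 hit on each, so such sites could not depart from an even split. Among sites hit on 1 strand only, 147 of 296 lay on the strand of the gene (p 0.954, the same test).

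Members had higher scores than the 1022 promoter peaks of protein-coding genes without the E-box motif, which are the comparison peaks and include 162 with the excluded motif. The median score was 12.3 in members (order-statistic interval 11.4 to 13.4, range 2.76 to 137) and 10.0 in comparison peaks (9.53 to 10.5, range 2.06 to 133). Members and comparison peaks overlapped over nearly their whole range. The distal E-box motif peaks had a median of 13.4 (12.5 to 13.9) and all nuclear peaks of the list 11.6, neither tested against members. A score above the pooled median of 10.8 was reached by 268 members (58.4%) and 470 comparison peaks (46.0%), an odds ratio of 1.65 (1.32 to 2.06) with an adjusted p of 6.99e-05. Fisher's exact test was used here and for all comparisons with these peaks, with adjustment over 16 tests. A score of at least 20 was reached by 26.1% against 16.2% (odds ratio 1.83, 1.40 to 2.38; adjusted p 6.99e-05). Neither call held among the 127 members and 121 comparison peaks whose flanks were not rich in CpG. The odds ratios there were 1.22 (0.739 to 2.00, adjusted p 0.798) and 1.18 (0.652 to 2.14, adjusted p 0.956). Both calls held among the more numerous peaks with CpG-rich flanks, at 1.74 (1.35 to 2.25) and 1.99 (1.47 to 2.69). The intervals of the 2 classes overlap, and a difference between the classes was not tested.

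Between members with and without an E-box in a hit, no difference in score was found. The median score was 12.3 (11.2 to 13.4) in members with an E-box in a hit and 12.5 (11.1 to 13.9) in members without one. A score above the median of all members was found in 49.6% and 50.2% of them, and the odds ratio of 0.975 had an interval of 0.675 to 1.41 (adjusted p 0.926, Fisher's exact test over 5 comparisons). Each kind was above the pooled median more often than the comparison peaks, at 58.9% (odds ratio 1.69, adjusted p 0.000569) and 57.7% (1.61, adjusted p 0.00296, Fisher's exact test over 6 comparisons). These splits by the E-box were chosen after the data were seen.

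**Figure D1:**
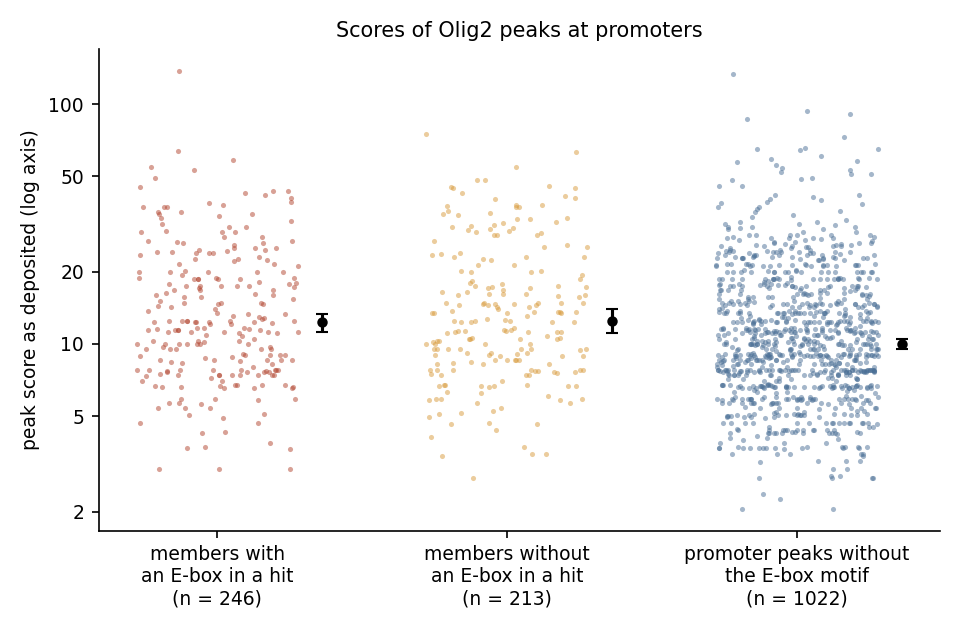
Deposited peak score on a log axis, 1 point for each of 246 members with an E-box in a hit, 213 members without one, and 1022 promoter peaks without the E-box motif. Black points are medians with 95% order-statistic intervals, at 12.3, 12.5 and 10.0, and the points of all 3 groups overlap.

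Scores of members were also set out by position, sites and further peaks. The median was 12.5 (11.4 to 13.6) in the 353 members upstream of the TSS and 10.3 (8.99 to 14.7) in the 105 downstream. It was 12.3 in the 429 members with 1 site and 12.7 in the 30 with 2 or more. The 55 members whose gene had a further peak outside the promoter had a median of 14.7 (11.4 to 17.5), against 12.2 (11.2 to 13.1) in the other 404. These intervals overlapped in each pair. Only 242 different scores occurred among the 459 members, so ties were common.

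Members lay close to the TSS, as their annotation requires, but less often upstream of it than comparison peaks. The median distance of the peak center was 74 bp upstream in members, with a range from 999 bp upstream to 552 bp downstream of the nearest TSS. Of 458 members not centered on the TSS, 353 were upstream (77.1%), against 867 of 1018 comparison peaks (85.2%), an odds ratio of 0.586 (0.443 to 0.773; adjusted p 0.000788). In the 100 bp just upstream lay 35.5% of members and 47.8% of comparison peaks, and in the 100 bp just downstream 20.7% and 13.7%. The members without an E-box in a hit were upstream in 73.1% (odds ratio against comparison peaks 0.474, adjusted p 0.000148) and those with one in 80.5% (0.718, adjusted p 0.0789, Fisher's exact test over 6 comparisons), and these 2 shares were not shown to differ (adjusted p 0.150). The call on all members was also not past the threshold among peaks with a score of at least 10 (0.672, adjusted p 0.122). Each comparison peak must carry another listed motif, and the part of that choice in the difference in position was not tested.

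**Figure D2:**
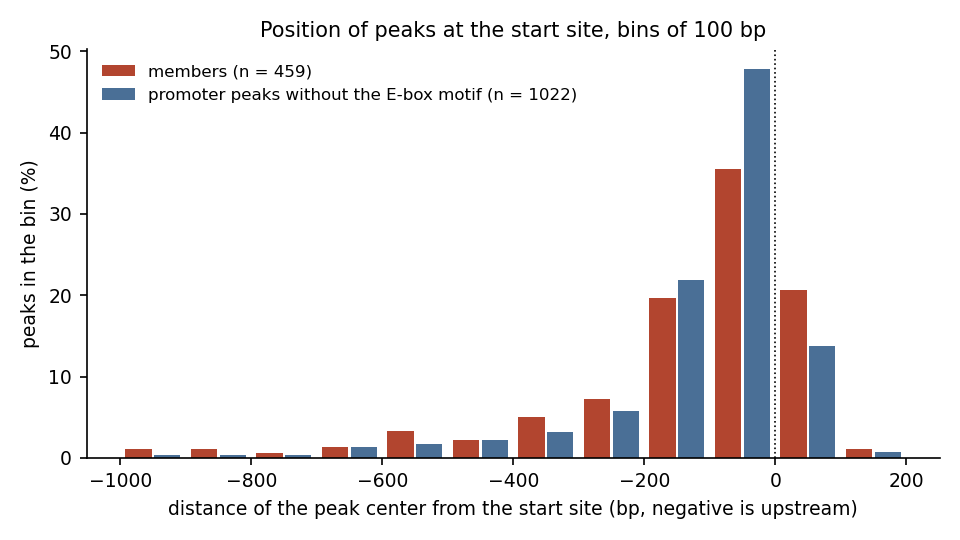
Share of peaks, in percent, by distance of the peak center from the nearest TSS in bins of 100 bp, for 459 members and 1022 comparison peaks. Members are 35.5% of their group in the bin just upstream, where comparison peaks are 47.8%, and 20.7% against 13.7% in the bin just downstream; 6 members and 8 comparison peaks farther downstream are outside the plot.

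Within 100 bp of the TSS on either side were 258 members (56.2%) and 630 comparison peaks (61.6%), which was not past the threshold (odds ratio 0.799, 0.639 to 0.999; adjusted p 0.137). It was past it within 200 bp, with 353 members and 861 comparison peaks (0.623, adjusted p 0.00312), and for members with an E-box in a hit (0.686, adjusted p 0.0291). The edge of the promoter set is where the annotation puts it. The member farthest upstream was at Cntn2, 999 bp from the TSS, and the nearest E-box motif peak beyond was 1020 bp upstream of Plekhb1 and annotated as intergenic. On the other side, the last member in the promoter of its own nearest gene lay 104 bp downstream of the TSS of Mospd3, and the next E-box motif peak, 105 bp downstream at Gdpd1, was outside. For 41 members the promoter in the annotation belonged to another gene than the nearest one.

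The flanks of members were less often rich in CpG than those of comparison peaks. Flanks are the 250 bp on each side of the peak, which the authors' motif search of the 51 bp did not use, and CpG-rich means a GC fraction of at least 0.5 and at least 0.6 of the CpG expected from it. CpG-rich flanks were present at 332 members (72.3%, exact interval 68.0 to 76.4) and at 901 comparison peaks (88.2%, 86.0 to 90.1), an odds ratio of 0.351 (0.266 to 0.464; adjusted p 6.02e-12). The median of observed over expected CpG was 0.744 (0.727 to 0.767) against 0.805 (0.795 to 0.817). Of the windows at 21000 protein-coding genes, 48.6% had CpG-rich flanks, below both groups. Each comparison peak must carry another of the 20 motifs, and many of the commonest words of these hold CG. The part of that choice in the difference between the groups was not tested. With a score of at least 20 required, the shares were 89 of 120 and 140 of 166, and the call was lost (0.533, adjusted p 0.294).

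Here the members with and without an E-box did differ. CpG-rich flanks were present at 158 of 246 members with an E-box in a hit (64.2%) and at 174 of 213 without one (81.7%), an odds ratio of 0.402 (0.261 to 0.621; adjusted p 0.000140, Fisher's exact test over 5 comparisons). Both were below the comparison peaks, with odds ratios of 0.241 (adjusted p 2.84e-16) and 0.599 (adjusted p 0.0161, Fisher's exact test over 6 comparisons). The hit words without an E-box often hold CG, and the part of local base composition in this difference was not tested.

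**Figure D3:**
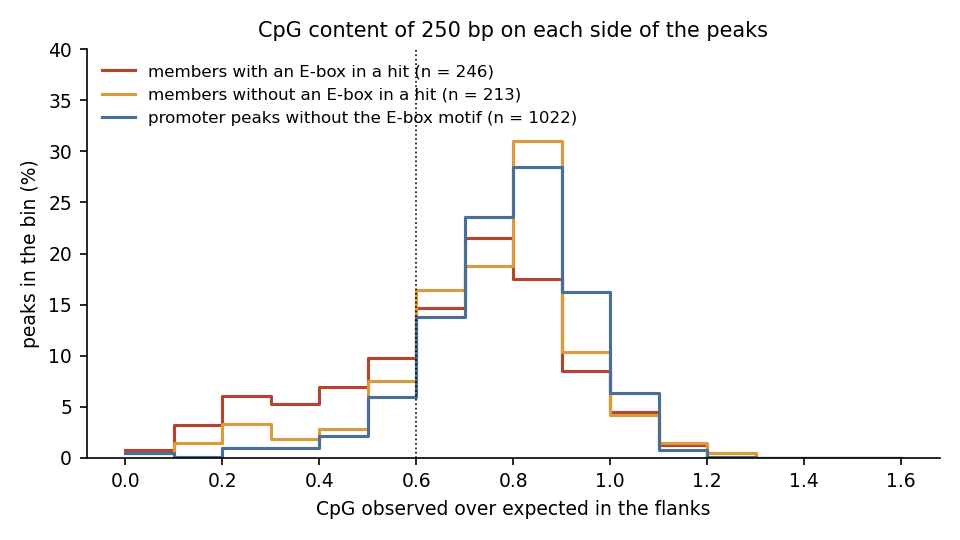
Share of peaks, in percent, by the ratio of observed to expected CpG in 250 bp on each side, in bins of 0.1, for the same 3 groups. The dotted line is the limit of 0.6, and the members with an E-box in a hit have the lowest median, at 0.716, against 0.787 in members without one and 0.805 in comparison peaks.

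Other short words were searched on both strands in 250 bp of flank, shared evenly by the sides of the peak, outside the bases the authors searched. A further CAGCTG was present in the flanks of 60 members (13.1%) and 154 comparison peaks (15.1%), against 13.8% of the windows at all genes, and the difference was not past the threshold (odds ratio 0.848, 0.615 to 1.17; adjusted p 0.435). GGGCGG, the GC box bound by Sp1, was less frequent at members, with 55.6% against 62.9% (odds ratio 0.737, 0.589 to 0.921; adjusted p 0.0261) and 41.8% of all windows. That call was lost among CpG-rich flanks alone (0.943, adjusted p 1) and among members with an E-box in a hit (0.717, adjusted p 0.0541). Comparison peaks must carry a motif other than the E-box motif, and the commonest words of some hold GGGCGG in reverse complement. The part of this in the GGGCGG difference was not tested. The CCAAT box was in 41.4% against 43.7% and in 29.5% of all windows. The TATA word TATAAA was in 20 members (4.36%) and 27 comparison peaks (2.64%), against 10.6% of all windows (odds ratio 1.68, adjusted p 0.246). Of its 20 members, 18 were among the 246 with an E-box in a hit (7.32%), and for these the odds ratio was 2.91 (1.58 to 5.37; adjusted p 0.00617). The ETS word CCGGAAG was in 16.6% of members and 18.9% of comparison peaks, and was lower among members with an E-box in a hit (odds ratio 0.597, adjusted p 0.0400). The commonest word of the excluded motif holds CCGGAAG in reverse complement, and comparison peaks with that motif were kept. Without those 162 peaks the call was lost (0.637, 0.418 to 0.969; adjusted p 0.0881), an alternative chosen after the data were seen. The CREB word TGACGTCA, the NRF1 word GCGCATGC, the SOX word ACAATGG and the E-box CACGTG were each short of the threshold for all members.

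Within the 51 bp, 320 of the 459 members (69.7%) carried no other listed motif. Peaks that also held the excluded motif were left out by the rule, which raises this share. The most frequent companion was a motif with TGATTGGC as its commonest word, which holds the CCAAT box in reverse and was present in 42 members (9.15%), among them the one with the highest score. Every peak of the list carries at least 1 of the 20 motifs, so that comparison peaks must carry another, and no comparison of these shares is made.

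Start sites of another gene in the opposite direction lay within 1 kb of the TSS for 70 of 457 members (15.3%) and 186 of 1021 comparison peaks (18.2%), against 10.7% of all genes. This difference was not past the threshold (odds ratio 0.812, 0.601 to 1.10; adjusted p 0.363). A further peak of the list outside the promoter had the same nearest gene for 55 of 456 member genes (12.1%) and for 114 of the 1002 genes with comparison peaks alone (11.4%; odds ratio 1.07, 0.758 to 1.51; adjusted p 0.724). Of the 70 further peaks at member genes, 55 carried the E-box motif and 32 had a higher score than the member.

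**Figure D4:**
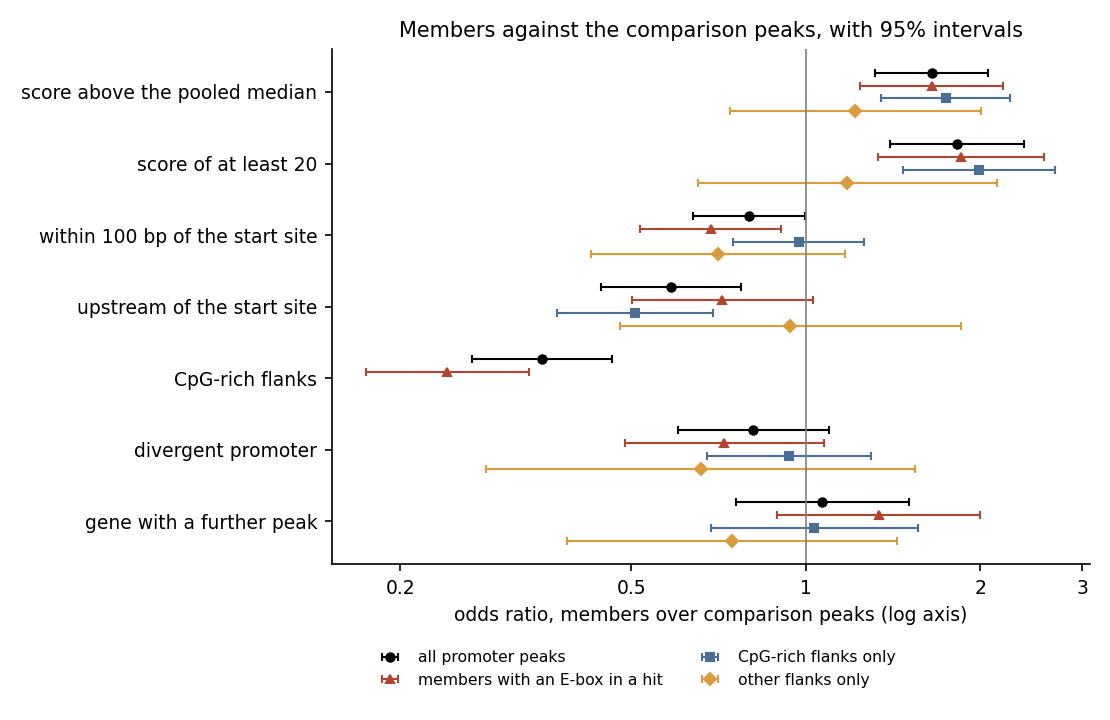
Odds ratios of members over comparison peaks on a log axis, with 95% intervals, for 7 features. Black circles use all promoter peaks, red triangles members with an E-box in a hit, blue squares CpG-rich flanks alone and orange diamonds the other flanks alone; the ratio for a score of at least 20 is 1.83 over all and 1.18 in the other flanks.

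The 12 members with the highest scores lay at genes of varied function. Mrpl34, a protein of the large subunit of the mitochondrial ribosome, had the highest, 137, at a center 316 bp upstream of its TSS, which was rank 3 of the whole list. The next was Amd1, the S-adenosylmethionine decarboxylase of polyamine synthesis, with 74.7 at 118 bp upstream and no E-box in its hit. Mafa, a leucine zipper factor known for activating the insulin gene in pancreatic beta cells, followed with 63.7 at 562 bp upstream, and was the only one of the 12 highest members with 4 hits. The score fell by less between the next members. Dcaf13, a nucleolar protein of ribosome assembly, had 62.8 with its center 10 bp upstream, at a promoter shared with Slc25a32, whose start lies 158 bp away on the other strand. Urod, an enzyme of heme synthesis, had 58.7, and the annotation puts this peak in the promoter of its neighbor Hectd3. T2 had 54.9 and Lig4, the DNA ligase of non-homologous end joining, had 54.6. Chn2, a GTPase-activating protein for Rac, had 52.9 with its center 8 bp upstream of the TSS. Smim7 had 49.4 in a peak annotated to the promoter of Tmem38a, and Ralgps1, an exchange factor for Ral GTPases, had 48.4 at 38 bp downstream. Dnajc1, a chaperone partner in the endoplasmic reticulum membrane, had 48.1, and the kinase Sgk1, which glucocorticoids induce, had 45.7. Of these 12, 6 had an E-box in a hit and 6 did not.

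Genes were then counted by list. Of 21774 protein-coding genes in RefSeq, 455 (2.09%) were the nearest gene of a member, and a further 1000 (4.59%) were the nearest gene of comparison peaks only. Any peak of the list was nearest to 3082 (14.2%). These shares are the background for the counts below, which are descriptions with exact intervals and no test. Genes with several annotated starts have more promoter sequence, and this was not taken into account.

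Of 49 genes of myelin and mature OLs, 3 had a member (6.12%, exact interval 1.28 to 16.9, which holds the background of 2.09%). Comparison peaks only were at 7 of the 49 (14.3%), and 29 were the nearest gene of some peak of the list. Cryab, a small heat shock protein abundant in mature OLs, had a score of 41.8 at 32 bp upstream. Hapln2, a link protein of the matrix at nodes of Ranvier, had 30.9 at 106 bp upstream. Cntn2, an adhesion molecule of the juxtaparanode, had 21.2, and a further peak in its intron with the E-box motif had 28.4. All 3 had an E-box in the hit and flanks poor in CpG, with an observed over expected ratio of 0.135 at Cryab, 0.0938 at Hapln2 and 0.221 at Cntn2, and their sites are shown for that reason, with that of Cntn2 on the plus strand.
Cryab (chr9:50752924-50752953, plus strand): ggggcccaccAGCAGCTGCTtgggattcca
Hapln2 (chr3:88027609-88027638, minus strand): atcccacatcCCCAGCTGTTgacatttcca
Cntn2 (chr1:132543943-132543972, plus strand): ctggctagtggCCCAGATGctgcaacagct
The first 2 hold CAGCTG and the third holds CAGATG.

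No member was found at the 38 transcription factors of the OL lineage (0%, exact upper limit 9.25%) or at the 20 markers of OL precursors, and at the background of 2.09% lists of this size may hold none. Some peak of the list was nearest to 20 and 7 of these genes. There was also none at the markers of astrocytes, neurons, microglia, endothelial and mural cells, or Schwann cells, lists of 12 to 23 genes. Of 46 protein-coding genes named in the text of the paper, which chose many of them on these peaks, 11 had comparison peaks only (23.9%). Of the same 46, 3 had a member. One of these 3 was Cryab, described above. Vhl, which targets hypoxia-inducible factors for degradation, had 8.99 at 86 bp downstream of the TSS, with no E-box in the hit. Clip3, a linker of membranes to microtubules, had 6.71 at 117 bp upstream and CAGCTT in the hit in place of an E-box. Clip3 also had a peak of 88.3 with the E-box motif 1905 bp upstream, outside the promoter window.

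Genes of the microtubule cytoskeleton had members in 10 of 137 cases (7.30%, exact interval 3.56 to 13.0), and comparison peaks only in 16 (11.7%). Dctn2, a subunit of the dynactin complex that links dynein to its cargo, had 45.0 at 30 bp downstream. Mapre1 and Mapre2 encode the plus-end tracking proteins EB1 and EB2, and Mapre1 had 39.0 at 94 bp upstream. Mapre2 had 2 members, with 34.6 and 5.89, at different starts of the gene. Clip1, which also tracks growing plus ends, had 38.0 at 671 bp upstream. Of these 4 genes, Mapre1 alone had an E-box in the hit of its highest member.

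Genes of the mitochondrial ribosome had members in 7 of 75 cases (9.33%, 3.84 to 18.3), and genes of the cytosolic ribosome in 1 of 84 (1.19%, 0.0301 to 6.46), Rpl35 with 5.14. Comparison peaks only were at 7 genes of the mitochondrial ribosome (9.33%) and 11 of the cytosolic (13.1%). Below Mrpl34 came Mrps9 of the small subunit with 35.5, Mrpl45 with 13.7 and Mrpl11 with 10.9, all 4 with an E-box in a hit. The heat shock and unfolded protein response list had 6 of 107 (5.61%, 2.09 to 11.8), and comparison peaks only at 14 (13.1%). Beside Dnajc1 these included Ddit4, a stress-induced inhibitor of mTORC1, with 42.7, Hspbp1, a cochaperone of Hsp70, with 38.0, and Dnajb1, an Hsp40 chaperone, with 31.9. Small GTPases had 8 of 130 (6.15%, 2.69 to 11.8) and comparison peaks only at 12 (9.23%), with Rab5c of early endosomes at 29.6 and Rab6a of the Golgi at 26.3. Arl6ip5, at 25.2, entered by its symbol and is no GTPase. Rap2b, a relative of Ras, had 2 members, at 18.6 and 9.53.

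**Figure D5:**
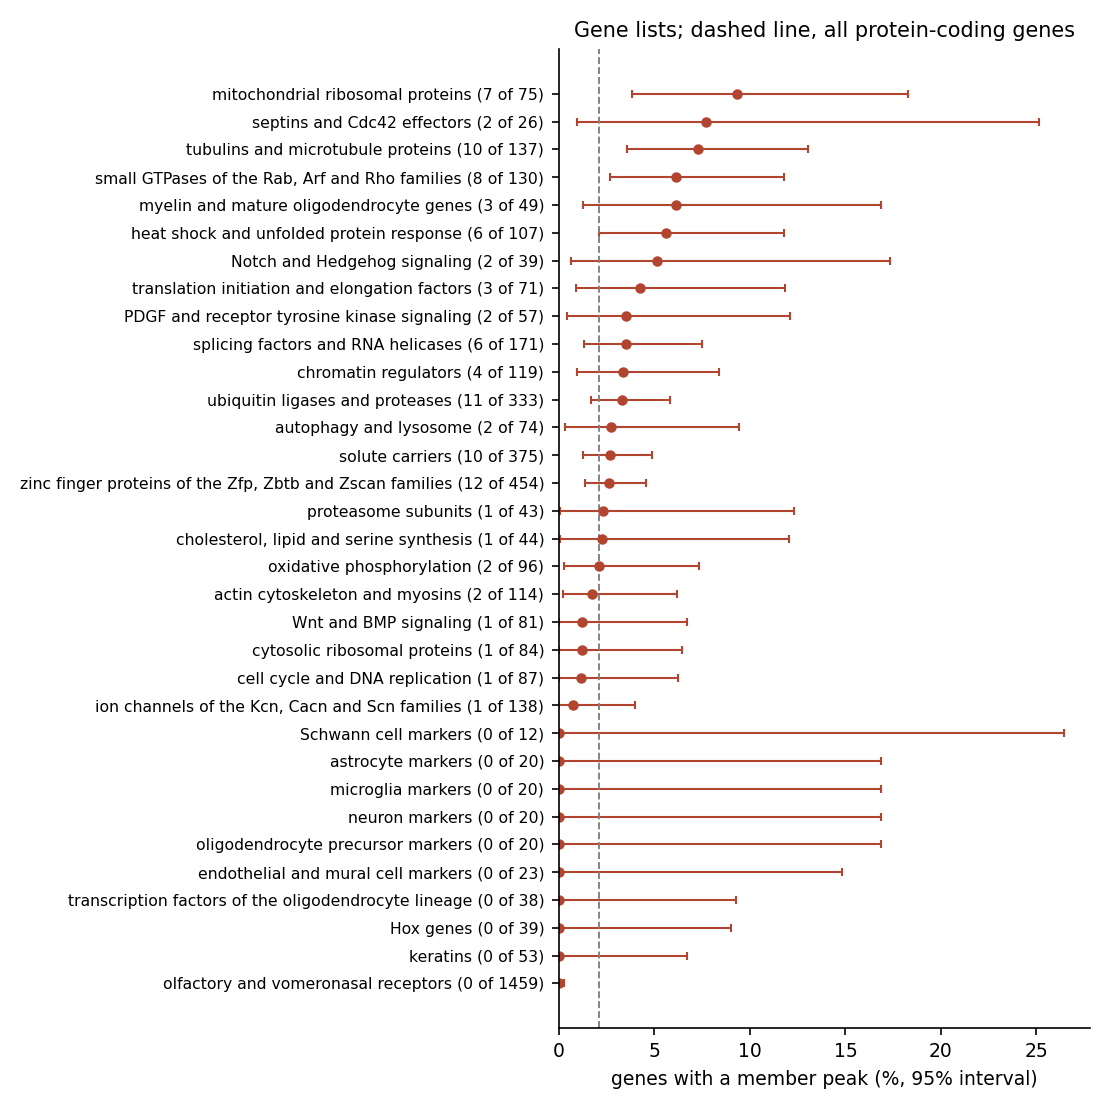
Share of the genes of each list with a member, in percent, with exact 95% intervals and the counts in brackets. The dashed line is the 2.09% of all protein-coding genes, and the highest share is 9.33% for mitochondrial ribosomal proteins.

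The other lists with a member had shares from 0.725% (ion channels) to 7.69% (septins and Cdc42 effectors, 2 of 26), and the exact interval of each held the background of 2.09%. The intervals of the cytosolic ribosome and heat shock lists held it too, the latter with a lower limit of 2.085%. No interval is adjusted for the number of lists. Zinc finger proteins had 12 of 454 (2.64%), led by Zfp473 with 42.5, ubiquitin ligases and proteases 11 of 333 (3.30%), led by Rnf121 with 37.2, and solute carriers 10 of 375 (2.67%), led by Slc15a4 with 33.1. Slc35c2, of a family of nucleotide sugar transporters, had 2 members, with 31.3 and 11.6, and the other gene with a pair of members beside Mapre2 was Rap2b. Chromatin regulators had 4 of 119, led by the histone deacetylase Hdac11 with 38.0. Splicing factors and RNA helicases had 6 of 171, led by Rbm14 with 26.5, and translation factors had 3 of 71, led by Eif5b with 31.5, whose hit holds CATATG. One of these 3, N6amt2 (13.6), entered by its RefSeq symbol Eef1akmt1 and is a methyltransferase of an elongation factor. Comparison peaks only were at 14 of the 71 (19.7%) and at 22 of the splicing and helicase list (12.9%). The shares with comparison peaks only were 5.07% for zinc finger proteins and 6.61% for ubiquitin ligases and proteases. They were 3.20% for solute carriers and 7.56% for chromatin regulators. The cell cycle list had 1 of 87, Cdc45 of the replicative helicase with 24.7, and comparison peaks only at 10 (11.5%). Notch and Hedgehog signaling had 2 of 39. These were Adam17, a protease that can cleave Notch, with 12.3, and Ptch1, the Hedgehog receptor, with 8.31. The member of the Wnt and BMP list was Id1, an inhibitor of bHLH factors, with 11.4 at 986 bp upstream. Oxidative phosphorylation, proteasome, autophagy, lipid synthesis, tyrosine kinase, actin and ion channel lists had 1 or 2 members each. The 2 of the septin list were Cdc42se1 (7.82) and Cdc42se2 (6.71), which are small Cdc42 effectors and no septins. No member was found at 39 Hox genes, 53 keratins or 1459 olfactory and vomeronasal receptors, the last of which allows a share of up to 0.253%.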

How the data were processed

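Each Olig2 peak has 1 deposited score, which the authors' peak caller gave on reads pooled over experiments, with pooled Input as background; it was ranked as it stands. The study's methods and processing notes state that reads were aligned to mm10 with BWA, peaks were called with MACS2, and HOMER gave annotation, nearest gene, distance and motif hits; tool versions are not given in the notes. The deposited GC and CpG fraction of each 51 bp peak comes from HOMER, and the GC fraction matched GRCm38.p6 at all 4212 nuclear peaks, as did the place of all 7174 motif hits. A table that repeats peaks of the list and the Input Control were not used.

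Gene names, strands and other start sites came from RefSeq on that assembly. Strand was found for 457 members, and the TSS was placed by the deposited distance. Shares were compared by two-sided Fisher's exact tests with Benjamini-Hochberg adjustment at 0.05 over 16 and 3 tests, with Wald intervals of odds ratios on the log scale and exact (Clopper-Pearson) intervals of shares, at 95%. Scripts used python 3.11.15, scipy 1.17.1, numpy 2.4.6, pandas 2.3.3 and pysam 0.24.0, and the tests were tested on simulated data. Alternatives changed the score, the promoter definition, the motif rule, gene types, windows and peaks per gene. Those by CpG class, by distinct sites, by peaks in place of hits, by sites hit on 1 strand, by promoter gene and by CCGGAAG without the excluded motif were chosen after the data were seen.

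The members and gene lists were chosen with earlier results of these data known, so the counts over lists are descriptions. Named genes are those of the 12 highest members, of the genes with more than 1 member, of members among genes the paper names, of up to 4 of the highest members of each list, and of the edges of the promoter window.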

Additional observations from a re-analysis of the deposited data

How the results depend on the processing

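No paired analysis was possible because the list holds 1 score for each peak from pooled experiments. Of 223 alternative values, 186 kept their direction and their side of the threshold, 13 fell short of it, 5 newly passed it and 19 changed direction. None of the 19 was past the threshold, before or after, except the share of CAGCTG among hits. The values below are odds ratios, and the cause of each change was not tested. A limit on score or CpG class also leaves a smaller number of peaks.

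With a score of at least 10, the ratio was 0.672 for upstream peaks and 0.965 for genes with a further peak. With a score of at least 20 it was 0.731 and 0.534 for the same results, 0.533 for CpG-rich flanks and 0.767 for more than 1 hit, and in the flanks 1.15 for CCAAT, 0.780 for GGGCGG, 2.10 for TGACGTCA, 0.859 for GCGCATGC and 0.797 for CACGTG. With promoters set as 1 kb around any RefSeq TSS it was 0.680 for peaks within 100 bp, 1.08 for CAGCTG in the flanks and 1.01 for the strand of hits, and the last was 1.00 with peaks of the excluded motif kept. Members with CANNTG in a hit gave 0.686 for peaks within 100 bp, 0.718 for upstream peaks, 1.06 for the share of CAGCTG, 0.836 for more than 1 hit, and in the flanks 0.717 for GGGCGG, 0.597 for CCGGAAG, 0.989 for GCGCATGC, 2.91 for TATAAA and 0.958 for ACAATGG. With peaks of the excluded motif also left out of the comparison, the ETS word gave 0.637, short of the threshold. A distance of 200 bp gave 0.623 for nearness to the TSS, flanks of 250 bp on each side gave 1.10 for CAGCTG, and counting peaks in place of hits gave 0.916 for hits near the center. In CpG-rich flanks alone it was 1.03 for CCAAT, 0.943 for GGGCGG, 1.02 for TGACGTCA and 0.677 for ACAATGG. In the other flanks alone it was 1.22 and 1.18 for the score results, 0.940 for upstream peaks, 0.747 for genes with a further peak, 0.634 for GGGCGG and 0.951 for TATAAA.

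The list has no read counts, so no error can be given for a score. Counts under 10, as for TGACGTCA and ACAATGG, fix no direction.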
